A study of Mus musculus with 8 samples.

Results

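Interleukins are secreted proteins through which leukocytes signal to each other, and most act on paired receptor chains. Their genes were taken from the deposited gene list as every symbol made of Il and a digit, leaving out 16 genes of the IL-1 group, the T cell effector cytokines and a few others. That gave 69 of the 31053 genes listed: 29 ligands, 39 receptor chains and 1 antisense RNA. In at least 1 cell class 39 of them reached 20 unique molecular identifiers (UMIs, each standing for 1 captured transcript) and are called measured below. These were 12 ligands, 26 receptor chains and the antisense RNA Il1bos.

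The cells were CD45+ cells, that is leukocytes by the surface protein used to sort them, isolated with magnetic beads from normal mouse brain (control) or from gliomas grown in mice. The labels list 4 control and 4 glioma samples and give neither strain, age, sex, glioma model nor treatment. Each group was deposited as 1 matrix with no assignment of barcodes to mice, so each group is 1 pooled library. Differences below are therefore between 2 libraries, without replicates or tests, and every interval covers counting error only.

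After filtering, the control library held 13680 cells (median 6842 UMIs) and the glioma library 11049 cells (median 11332 UMIs). Cells were assigned to classes by UMIs of marker genes. The control classes used were 12032 microglia, 172 border-associated macrophages, 103 endothelial cells and 53 T cells. The glioma classes were 6547 macrophages, divided into 1612 Ly6c2/Chil3 monocytes, 1135 Arg1, 2455 Cxcl9 and 1345 other macrophages. They also included 410 neutrophils, 1258 T cells, 105 NK cells and 3 sets of dendritic cells (DC): 170 Xcr1/Clec9a, 174 Ccr7 and 398 Plet1/Ccl17/Flt3 cells. A further 72 glioma cells carried keratin and Rhox5 transcripts. No gene of the set was used in a gate. Levels are class sums of UMIs per 1000000 UMIs of the class (CPM). Of genes used in no gate, the microglial Siglech stood at 1054 CPM in control microglia and 0.117 in glioma macrophages, and Lyz2, a gene of monocytes and macrophages, at 460 and 5453 CPM. The keratin and Rhox5 cells had Ptprc, the CD45 gene, at 7.33 CPM against 252 in control microglia, and Epcam at 0.699 CPM, so they are called by their gate genes alone. The 158 glioma cells of the microglia gate had Siglech at only 10.8 CPM and Lyz2 at 6250 CPM and were not used as microglia.

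Interleukin receptors fall into families that share chains. The common gamma chain, Il2rg, serves the receptors for IL-2, IL-4, IL-7, IL-9, IL-15 and IL-21. The chain gp130, encoded by Il6st, serves IL-6, IL-11 and IL-27. Il12rb1 serves IL-12 and IL-23, and the interleukins of the IL-1 family, such as IL-18, IL-33 and IL-36, signal through receptor pairs related to the IL-1 receptor. In the brain, microglia carry receptors for IL-6 and IL-10, and T and NK cells carry those for IL-2, IL-12, IL-18 and IL-21.

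**Figure D1:**
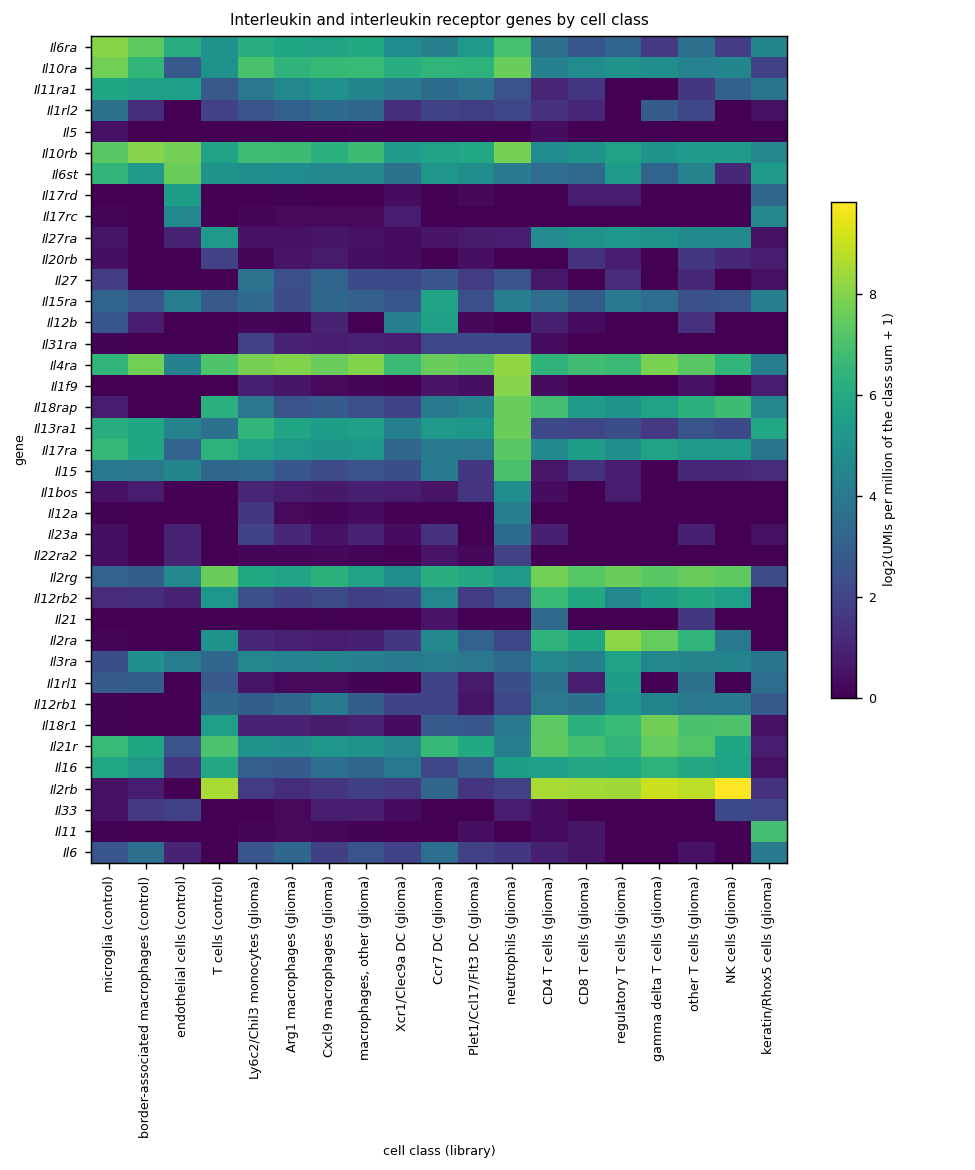
Colour gives log2(CPM + 1) of the 39 measured interleukin and receptor genes (rows) in 19 cell classes that do not overlap (columns, library in brackets). Genes are ordered by the class in which they are highest: the blocks belong to control microglia at the top, glioma neutrophils in the middle and T and NK cells below.

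The 39 measured genes were spread over most lineages. By the class of highest level, 14 were highest in T or NK cells (11 receptor chains and 3 ligands), 10 in neutrophils, 5 in microglia, 3 in DC, 3 in endothelial cells, 2 in the keratin and Rhox5 cells, 1 in border-associated macrophages and 1 in Ly6c2/Chil3 monocytes. For 22 of the 39, the 95% Poisson interval of the highest class did not overlap that of the next. Of the 10 neutrophil genes 9 were separate in this way, and of the 14 genes highest in T or NK cells 5. Il33 and Il20rb are among the 14 on 3 and 1 UMIs. T cells of glioma were divided in this count and microglia were not. Il16, among the 14 at 80.6 CPM in gamma delta T cells, was 86.3 CPM in the Il1a/Tnf/Gpr84 low state of microglia. The same counts were not made over all genes, so no background share stands beside them.

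The ligand-binding chains of the IL-6 and IL-10 receptors were highest in control microglia. Il6ra, the IL-6 binding chain, stood at 269 CPM in control microglia (interval 266 to 273, from 23227 UMIs) and at 166 in border-associated macrophages. In glioma, neutrophils held 123 CPM (105 to 142), the macrophage classes 52.6 to 70.9, the DC classes 18.4 to 38.9 and the T cell classes 2.07 to 11.3. After thinning every cell to 1000 UMIs, 25.3% of control microglia (24.5 to 26.1) and 6.09% of glioma macrophages (5.53 to 6.70) had an Il6ra UMI, against 1.43% of glioma T cells. Unthinned, the shares were 78.1%, 50.4% and 6.68%. The signalling partner Il6st was highest in control endothelial cells, at 196 CPM (170 to 225), and stood at 89.2 in control microglia and 24.8 in glioma macrophages. Among lymphocytes it was uneven: regulatory T cells had 40.3 CPM and NK cells 1.21.

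Il10ra, the ligand-binding chain of the IL-10 receptor, stood at 211 CPM in control microglia (208 to 214) and 189 in glioma neutrophils (168 to 213), 2 levels whose intervals overlap. Glioma macrophages held 99.8 CPM, with Ly6c2/Chil3 monocytes at 127 the highest of their 4 classes. The partner Il10rb, also used by IL-22 and interferon lambda receptors, was highest in border-associated macrophages at 259 CPM (233 to 287) and next in glioma neutrophils at 221 (197 to 246). The ligand gene Il10, which is not in the set, went the opposite way to Il10ra: 7.88 CPM in glioma macrophages against 1.11 in control microglia. Il11ra1, the IL-11 receptor, was 54.1 CPM in control microglia and 46.6 and 45.9 in border-associated macrophages and endothelial cells, levels that do not differ beyond counting error. Its near-identical copy Il11ra2 is listed under 3 identifiers with 0 UMIs each. How reads shared by the copies were counted is not given in the sources used here, so the level of Il11ra1 is uncertain.

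The gp130 ligands Il11 and Il6 were both highest in the keratin and Rhox5 cells. Il11, a gp130 cytokine, stood at 117 CPM (105 to 131) in the keratin and Rhox5 cells of the glioma library, where 45 of 72 cells had a UMI and the sum was 336 UMIs. The next class, CD8 T cells, held 2 UMIs at 0.484 CPM, and glioma barcodes over 100 and up to 300 UMIs, taken as free RNA, held 2.22 CPM. Il6, the inflammatory cytokine bound by Il6ra, was highest there too, at 15.02 CPM (10.9 to 20.2), but overlapped control border-associated macrophages at 11.5 (6.56 to 18.6), where 10 of the 16 UMIs lay in 1 cell. Both genes have the letters TGANTCA, the AP-1 motif with any base as N, in the 250 bases before a RefSeq start (GRCm38.p6). Both strands were searched, and the match in both genes is TGAGTCA. The shares that follow count a match with any base as N. Of 32851 such promoter windows 6.75% held it. By gene, counting any window, it was in 7.82% of 27025 genes and in 13.8% or 4 of the 29 measured genes with a window (Il11, Il15ra, Il16 and Il6). The 2 windows are shown because these genes share both the class of highest level and the motif, whose letters are in capitals. The Il11 window, the second of 2 listed, lies at chr7:4778142-4778391 on the minus strand with the motif 98 to 92 bases before the start, and the Il6 window at chr5:30012864-30013113 on the plus strand with the motif 249 to 243 bases before it.
Il11: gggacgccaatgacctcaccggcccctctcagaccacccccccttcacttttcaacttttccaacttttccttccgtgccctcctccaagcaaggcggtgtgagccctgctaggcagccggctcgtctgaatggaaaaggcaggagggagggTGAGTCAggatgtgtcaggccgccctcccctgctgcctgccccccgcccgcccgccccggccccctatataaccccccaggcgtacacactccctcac
Il6: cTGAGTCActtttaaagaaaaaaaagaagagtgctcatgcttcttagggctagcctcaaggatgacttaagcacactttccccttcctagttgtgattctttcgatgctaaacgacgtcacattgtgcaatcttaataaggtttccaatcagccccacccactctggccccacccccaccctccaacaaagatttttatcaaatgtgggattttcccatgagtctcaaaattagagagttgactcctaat

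**Figure D2:**
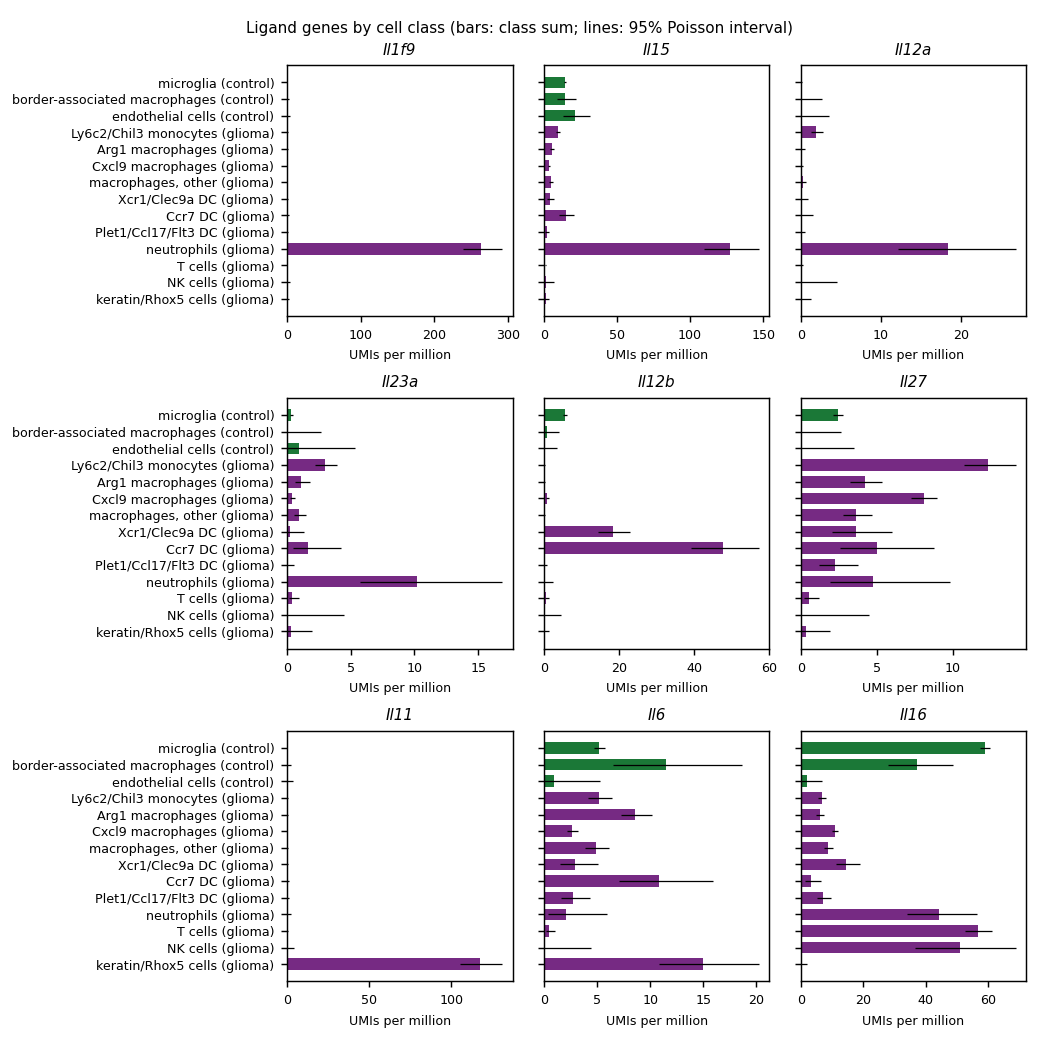
CPM of 9 ligand genes (horizontal axis, one panel a gene) by cell class, green for the control and purple for the glioma library; bars are class sums and lines 95% Poisson intervals. Neutrophils stand out for Il1f9 and Il15, Ccr7 DC for Il12b, Ly6c2/Chil3 monocytes for Il27 and the keratin and Rhox5 cells for Il11.

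Ligands of several families were highest in glioma neutrophils. Il1f9, which encodes IL-36 gamma, a cytokine of barrier tissue and neutrophils, stood at 264 CPM (238 to 291, 387 UMIs) in glioma neutrophils and at 0.819 CPM in the next class, Ly6c2/Chil3 monocytes. It was found in 170 of 410 neutrophils, and after thinning in 24.9% of them (20.8 to 29.4) against 0.0764% of glioma macrophages. Unthinned, these shares were 41.5% and 0.443%, and the free RNA of the library held 5.74 CPM. Its receptor chain Il1rl2 was instead highest in control microglia at 11.98 CPM, with Cxcl9 macrophages at 10.2 and neutrophils at 3.41. Il15, which supports NK and memory CD8 T cells, was 127 CPM (110 to 147) in neutrophils, 21.03 in control endothelial cells and 14.5 in control microglia, and was seen in 126 of 410 neutrophils. Il12a, the p35 subunit of IL-12, was 18.4 CPM (12.1 to 26.8) in neutrophils and 1.93 in Ly6c2/Chil3 monocytes. Il23a, the p19 subunit of IL-23, was 10.2 CPM (5.72 to 16.9) in neutrophils from 15 UMIs in 9 cells, and 2.98 in those monocytes, where 28 of 51 UMIs lay in 1 cell. The neutrophils were shallow, with a median of 2466 UMIs. When cells that pass the gates of more than 1 lineage were kept, the neutrophil levels were 137 CPM for Il1f9, 60.8 for Il15 and 9.57 for Il12a.

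With separate intervals, 4 receptor chains were also highest in glioma neutrophils. Il13ra1, an IL-4 and IL-13 receptor chain, stood at 192 CPM against 88.0 in Ly6c2/Chil3 monocytes. Il17ra, the shared IL-17 receptor chain, was 159 CPM against 93.0 in control microglia. Il18rap, the accessory chain of the IL-18 receptor, was 196 CPM (174 to 219) against 117 (106 to 128) in CD4 T cells. Il4ra, the IL-4 binding chain, was 289 CPM (262 to 318) against 251 (244 to 259) in Arg1 macrophages. With cells of more than 1 lineage kept, CD4 T cells became highest for Il18rap (112 against 93.8 CPM) and Arg1 macrophages for Il4ra (248 against 244), and Il13ra1 stood at 112 CPM in neutrophils.

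The IL-17 receptor chains Il17rd and Il17rc were highest outside leukocytes. Il17rd was 43.0 CPM (31.4 to 57.6) in control endothelial cells and 9.08 in the keratin and Rhox5 cells, and at most 0.726 in the other classes. Il17rc was 23.9 and 22.4 CPM in the same classes, which do not differ beyond counting error, and at most 0.731 elsewhere. Il16, a chemoattractant for CD4 cells, was widespread, at 80.6 CPM in gamma delta T cells, 60.5 in control T cells, 59.0 in control microglia and 9.01 in glioma macrophages.

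The subunits of the IL-12 family were highest in different cells. Il12b, the p40 subunit shared by IL-12 and IL-23, was highest in Ccr7 DC at 47.6 CPM (39.3 to 57.2) and next in Xcr1/Clec9a DC at 18.3 (14.4 to 22.9); the 398 Plet1/Ccl17/Flt3 DC held 1 UMI and neutrophils none. In control microglia it stood at 5.58 CPM. The transcripts were concentrated: 22 of 174 Ccr7 DC and 15 of 170 Xcr1/Clec9a DC had any, and of 12032 control microglia only 63 did, with 295 of the 482 UMIs in 10 cells and 88 in 1 cell. Those 63 cells carried microglial P2ry12 at 1458 CPM, against 2247 in the microglia without Il12b, and had more Cd74 (2476 against 407 CPM), Ccr7 (115 against 15.5) and Il1b (1959 against 341). Within the Il1a/Tnf/Gpr84 high state alone, Cd74 was 1488 against 487 CPM and Ccr7 69.6 against 29.3 in cells with and without Il12b. The 8 cells of the intermediate state had 11122 CPM of Cd74 and 515 of Ccr7. In the 7 cells of the low state the order was the opposite, with Cd74 at 83.3 against 205 CPM and Il1b at 16.7 against 51.5. Cells with Il12b were deeper than those without, at a median of 9571 against 6911 UMIs, and in the low state 10066 against 5246. Zbtb46, a gene of the Plet1/Ccl17/Flt3 DC gate, was 24.0 against 5.55 CPM over all microglia, and 0 against 2.28 in the low state. The part of doublets in these values was not tested. Of the 63, 48 were in the Il1a/Tnf/Gpr84 high state of microglia, which had 10.7 CPM against 1.04 in the low state.

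UMIs of Il12a and Il12b were too sparse to show whether cells carry both: 83 and 62 of the 11049 glioma cells had one, none had both, and in the control library 1 of 13680 cells did. Il23a and Il12b were likewise together in none of the 11049 glioma cells and in 1 control cell. A count of 0 allows up to 0.0272% of cells with UMIs of both, which limits detection and not expression. Il27, the p28 subunit of IL-27, was highest in Ly6c2/Chil3 monocytes at 12.3 CPM (10.7 to 14.1), followed by Cxcl9 macrophages at 8.09 (7.27 to 8.97), with Ccr7 DC at 5.01, Arg1 macrophages at 4.20 and control microglia at 2.43. Its partner subunit Ebi3 shared a cell with it in 251 glioma cells, 124 of them Cxcl9 macrophages, and in 57 control cells.

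The windows of Il12b and Il1f9 hold the letters GAGGAA, a core of the binding motif of PU.1, a myeloid transcription factor, and are shown as the promoters of the ligands of DC and of neutrophils. The letters, searched on both strands, were in 23.3% of all windows, and by gene in 25.9% of all genes and in 31.0% or 9 of the 29 measured genes with one; neither window holds the AP-1 letters. The Il12b window is chr11:44399813-44400062 and the Il1f9 window chr2:24186226-24186475 (GRCm38.p6, both on the plus strand, from RefSeq), with matches in capitals.
Il12b: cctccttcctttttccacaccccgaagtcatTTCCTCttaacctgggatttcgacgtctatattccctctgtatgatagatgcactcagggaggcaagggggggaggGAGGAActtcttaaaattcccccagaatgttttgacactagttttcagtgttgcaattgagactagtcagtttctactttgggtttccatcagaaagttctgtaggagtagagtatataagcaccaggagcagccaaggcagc
Il1f9: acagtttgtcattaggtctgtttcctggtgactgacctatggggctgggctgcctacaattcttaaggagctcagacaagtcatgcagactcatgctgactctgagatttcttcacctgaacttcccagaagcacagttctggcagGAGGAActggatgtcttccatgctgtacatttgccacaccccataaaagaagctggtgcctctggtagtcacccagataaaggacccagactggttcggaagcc

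T and NK cells held most receptor chains of the IL-2, IL-12 and IL-18 systems. Il2rb, the beta chain of the IL-2 and IL-15 receptors, was highest in glioma NK cells at 904 CPM (841 to 972), followed by gamma delta T cells at 523 (461 to 592). CD4, CD8 and regulatory T cells were at 343 to 367 CPM, levels that do not differ beyond counting error, and control T cells at 369. It was seen in 103 of 105 NK cells. Il2ra, the alpha chain that gives the high-affinity IL-2 receptor and marks regulatory T cells, had another order: 277 CPM (251 to 305) in regulatory, 182 (146 to 224) in gamma delta, 81.7 in CD4 and 53.7 in CD8 T cells, and 14.5 in NK cells, where 8 of 12 UMIs lay in 1 cell. Ccr7 DC were the highest class outside lymphocytes, at 23.4 CPM. Of 131 regulatory T cells 86 had UMIs of both chains, against 5 of 105 NK cells. The shared chain Il2rg was more even, from 148 to 209 CPM in the T and NK classes of glioma, 190 in control T cells, and 49.1 to 78.5 in the macrophage classes.

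Il12rb2, the signalling chain of the IL-12 receptor and a mark of type 1 helper cells, was highest in CD4 T cells at 100.1 CPM (90.2 to 110.8), with CD8 T cells at 61.2, NK cells at 46.1 and regulatory T cells at 22.6. Its partner Il12rb1 was highest in regulatory T cells at 34.9 CPM (26.0 to 45.8), overlapping gamma delta T cells at 20.7, and Cxcl9 macrophages held 15.1, close to CD4 T cells at 13.8. In Cxcl9 macrophages 504 of 2455 cells had an Il12rb1 UMI and 141 an Il12rb2 UMI, and 37 had both. Il18r1, the IL-18 binding chain, was 205 CPM in gamma delta, 163 in CD4, 135 in NK and 75.7 in CD8 T cells. Its intervals in gamma delta and CD4 T cells overlapped. The accessory chain Il18rap was on the same lymphocytes but not in the same proportion, since neutrophils had 183 of 410 cells with Il18rap and 20 with Il18r1. Both chains were found together in 141 of 390 CD4 T cells and 11 of 410 neutrophils. These counts are of unthinned cells, with a median of 7972 UMIs in CD4 T cells and 2466 in neutrophils, so they are not matched for depth.

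**Figure D3:**
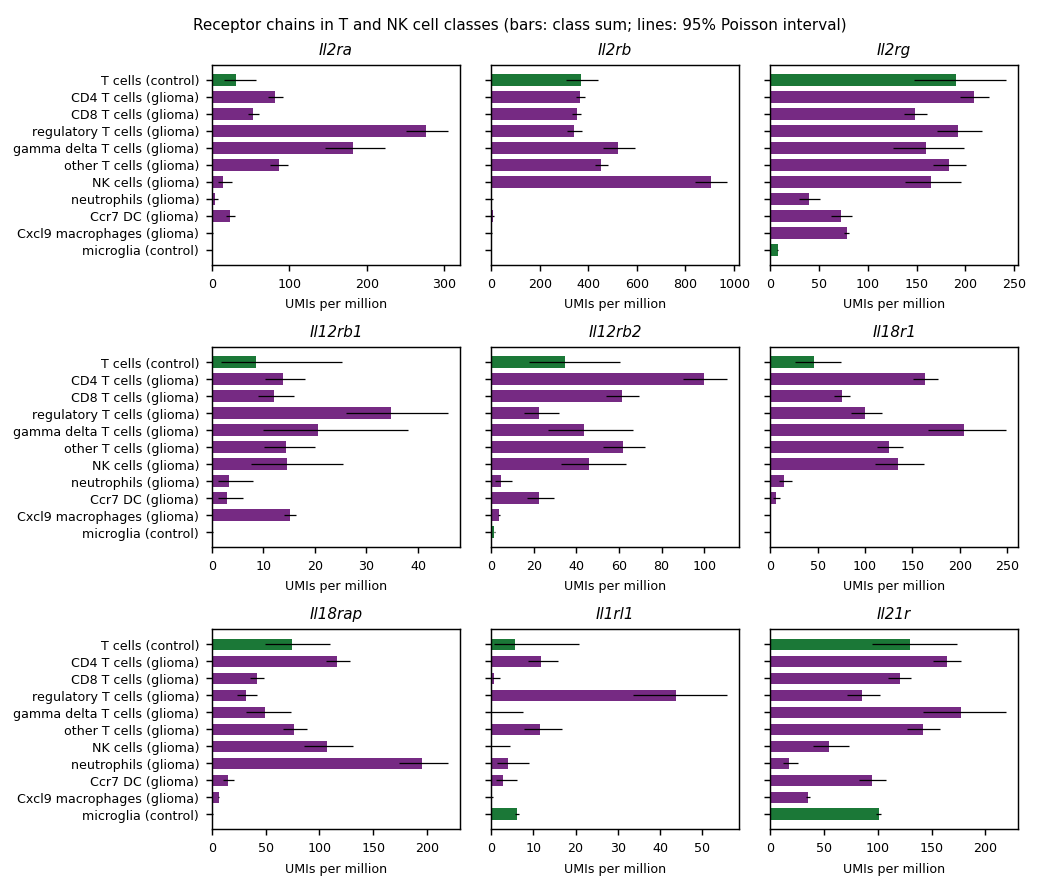
CPM of 9 receptor chain genes (horizontal axis) in the T and NK cell classes and, for comparison, in glioma neutrophils, Ccr7 DC, Cxcl9 macrophages and control microglia; bars are class sums, lines 95% Poisson intervals, green control and purple glioma. Il2rb peaks in NK cells at 904 CPM, Il2ra in regulatory T cells at 277, Il12rb2 in CD4 T cells at 100.1, and Il18rap in neutrophils at 196.

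Il1rl1 and Il21 were each highest in a single T cell class. Il1rl1, the IL-33 receptor ST2, was 43.7 CPM (33.7 to 55.9) in regulatory T cells from 64 UMIs and 11.9 in CD4 T cells, and 0 UMIs were seen in gamma delta T and NK cells. Averaged over cells in place of summed UMIs, its level in regulatory T cells was 74.2 CPM. Il21, a helper cell cytokine, was seen in 26 of 390 CD4 T cells (35 UMIs, 9.44 CPM), in 4 of 313 other T cells (5 UMIs), and in none of the 349 CD8, 131 regulatory, 75 gamma delta T and 105 NK cells. Its receptor Il21r was more widespread, at 164 CPM in CD4 and 178 in gamma delta T cells, 100.8 in control microglia and 94.8 in Ccr7 DC. Il27ra, which pairs with Il6st, was 24.2 to 34.9 CPM in the T and NK classes of glioma, 37.5 in control T cells and at most 0.956 in the other classes.

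Regulatory and CD4 T cells of the glioma library were then set side by side, a pair chosen after the values were seen. A gene is called here and below where its ratio is at least 2-fold with at least 20 UMIs over both sums. Of 21 genes of the set tested, 5 were higher in regulatory T cells (Il1rl1, Il2ra, Il12rb1, Il3ra and Il6st) and 4 lower (Il18rap, Il21, Il12rb2 and Il9r, the last with an interval that includes 0), where 6.26% and 4.35% of all genes were. Il6st was higher by a log2 ratio of 1.97 (1.36 to 2.60) and Il12rb2 lower by a log2 ratio of -2.13 (-2.71 to -1.63). In the same way 3 genes of 18 were higher in gamma delta than in CD8 T cells (Il18r1, Il2ra and Il4ra; 8.96% of all genes), with Il4ra at 230 against 110 CPM, and none was lower (8.98%).

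A further pair chosen in the same way was Ccr7 and Plet1/Ccl17/Flt3 DC. Of 24 genes tested, 8 were higher in Ccr7 than in Plet1/Ccl17/Flt3 DC and 2 lower (7 and 1 with intervals without 0), against 7.7% and 4.88% of all genes. Ccr7 marks DC that migrate to lymph nodes. The higher genes included Il12b (47.6 against 0.159 CPM), Il15ra, the chain that presents IL-15 (52.6 against 4.29), Il15 (15.04 against 1.91), Il12rb2 (22.6 against 2.23) and Il2ra (23.4 against 7.47). Il6ra was lower, at 18.4 against 38.9 CPM. For Il15ra, Ccr7 DC were the highest class of all, at 43.8 to 62.7 CPM by the interval, and 63 of 174 cells had it; 15 had Il15 as well. With cells of more than 1 lineage kept, Il15ra stood at 34.2 CPM there.

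The main myeloid classes of the libraries, glioma macrophages and control microglia, differed in class and library together, which cannot be told apart. Of 36 genes of the set tested, 14 were at least 2-fold higher in glioma macrophages, against 16.2% of 14507 genes, and 12 at least 2-fold lower, against 33.4%. The median log2 ratio was 0.23 for the set and -0.39 for all genes, and the shares of the set were 38.9% higher and 33.3% lower. Partner chains did not always go the same way: Il2rg was higher and Il21r, its partner in the IL-21 receptor, lower.

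Among the genes higher in glioma macrophages were chains of the IL-2 and IL-4 receptors. Il4ra was 216 CPM against 87.5, a log2 ratio of 1.30 (1.27 to 1.34), and the 4 macrophage classes lay between 189 and 251. Il2rg was 65.9 against 7.62 CPM, a log2 ratio of 3.11 (2.996 to 3.23). Il3ra, the IL-3 receptor, was 20.4 against 4.07. The largest ratio was that of Il12rb1, at 10.9 against 0.0695 CPM, a log2 ratio of 7.17 (6.16 to 8.74) on 6 UMIs in microglia. Il27 was 7.44 against 2.43 and Il31ra 1.17 against 0.0579. Il12rb2 was 3.51 against 1.40, and Il23a 1.09 against 0.313.

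Some of the higher genes were at low levels in macrophages and higher in free RNA. Il2rb stood at 1.95 CPM in glioma macrophages, Il2ra at 0.821, Il18r1 at 0.789 and Il1f9 at 0.341, while the free RNA of the glioma library held 45.7, 16.5, 15.9 and 5.74 CPM of them. Markers of other lineages put the share of free RNA at 2.96% of the macrophage sum. With that share subtracted, the log2 ratio went from 2.38 to 1.36 for Il2rb and from 2.51 to 1.32 for Il2ra. It went from 3.40 to 3.31 for Il18r1 and from 4.32 to 4.93 for Il1f9. With cells of more than 1 lineage kept, that of Il2rb was 0.80, and Il18r1 1.52. These levels in macrophages are not read as expression.

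**Figure D4:**
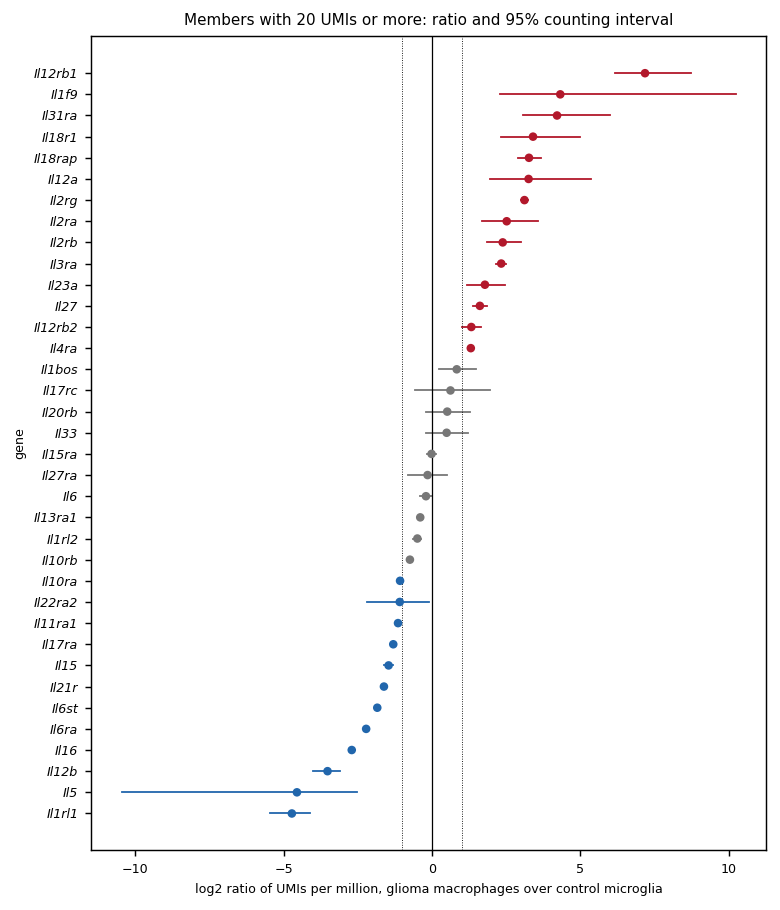
Log2 ratio of CPM, glioma macrophages over control microglia, for the 36 genes of the set with at least 20 UMIs over both sums; lines are exact 95% conditional binomial intervals, dotted lines mark 2-fold, red is higher, blue lower and grey in between. Il12rb1 is at the top at 7.17 and Il1rl1 at the bottom at -4.73, each on few UMIs in one of the classes.

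Of the 12 genes lower in glioma macrophages, Il6ra, Il10ra, Il11ra1 and Il5 were those with control microglia as their highest class. Il6ra was 57.6 against 269 CPM, a log2 ratio of -2.22 (-2.27 to -2.18), and Il6st 24.8 against 89.2. Il16 was 9.01 against 59.0, Il21r 32.7 against 100.8, Il17ra 37.5 against 93.0 and Il15 5.26 against 14.5 CPM. Il10ra, at a log2 ratio of -1.08 (-1.12 to -1.04), lay just past 2-fold, and just inside it with Gm42418 and mitochondrial genes left out of the totals, at -0.97. Gm42418, which overlaps ribosomal RNA, took 6.57% of the UMIs of glioma macrophages and 0.0916% of control microglia. Il1rl1 was 0.224 against 6.07 CPM and Il12b 0.480 against 5.58. The 482 Il12b UMIs of microglia came from 63 cells, with 295 of them in 10 cells. Il5 was 1 UMI against 32, and those 32 came from 3 of 12032 microglia with 22 in 1 cell, so neither its ratio nor its class of highest level stands for the class. Between the 2-fold limits were 10 genes, among them Il10rb (92.6 against 156 CPM), Il13ra1 (55.2 against 72.9), Il15ra (7.88 against 7.99) and Il6 (4.53 against 5.24).

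Comparisons between states of a myeloid class called fewer genes than that of macrophages with microglia, both of the set and of all genes. Comparisons within a library, also chosen after the values were seen, gave 4 genes of 28 higher in the Il1a/Tnf/Gpr84 high than in the low state of control microglia (Il1bos, Il2rg, Il12b and, with an interval that includes 0, Il23a; 5.78% of all genes) and 2 lower (Il16 and Il5; 7.47%). These states were gated by raw UMIs, and cells of the high state were deeper, at a median of 7980 against 5248 UMIs. The part of depth in these calls was not tested. Il2rg was 11.5 against 3.35 CPM and Il16 34.4 against 86.3, while Il5 had 0 UMIs in the high and 23 in the low state, 22 of them in 1 cell. Of the 428 Il12b UMIs in the high state, 287 lay in 10 cells. The receptors Il6ra (224 against 326 CPM) and Il10ra (171 against 262) stayed inside 2-fold. Il1bos is transcribed opposite to Il1b, and no source used here says that the counting kept strands apart. Of 30 genes tested, Arg1 macrophages had 2 higher than Cxcl9 macrophages (Il6, 8.60 against 2.67 CPM, and Il23a; 2.97% of all genes) and 3 lower (Il15ra, Il12b and Il33; 3.22%). Ly6c2/Chil3 monocytes had 6 of 32 genes higher than Cxcl9 macrophages (Il18rap, Il1f9, Il12a, Il23a, Il15 and Il31ra; 3.99% of all genes) and 6 lower (Il1rl2, Il11ra1, Il12rb1, Il20rb, Il12b and Il33; 8.1%). Of the 6 higher genes, Il18rap, Il1f9, Il12a, Il23a and Il15 were those with neutrophils as their highest class.

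T cells were compared within their class, 1258 cells in glioma against 53 in control. Of 25 genes tested, 4 were called higher in glioma T cells and 8 lower, against 12.1% and 15.1% of 10510 genes. On simulated data this comparison, with its 53 control cells, also called many unchanged genes, so a call alone carries little weight. Of the called genes of the set, 2 of the higher and 4 of the lower had intervals without 0. Il18r1 was 120 against 46.1 CPM, a log2 ratio of 1.34 (0.68 to 2.20), and Il2ra 100.4 against 31.7, a log2 ratio of 1.60 (0.82 to 2.67). Il6ra was lower at 8.55 against 31.7 CPM, Il17ra at 35.6 against 80.7, Il9r at 2.20 against 14.4 and Il6st at 15.5 against 31.7, the last with an interval of -1.91 to -0.01. With the 5% of cells of most UMIs left out, the log2 ratio of Il9r was 0.53 in place of -2.82, and with cells of more than 1 lineage kept that of Il6st was -0.78, inside 2-fold.

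Il6ra in control T cells rested on 11 UMIs, and the free RNA of the control library held it at 121 CPM; free RNA made up 8.77% of the control T cell sum by foreign markers, and 6.43% of the glioma one. C1qa, a macrophage and microglial gene, was 674 CPM in control and 72.1 in glioma T cells. The other called genes had intervals that include 0: Il21 with 40 UMIs against 0, for which the control depth sets no lower bound above 1, Il3ra with 23.6 against 8.64 CPM, and Il1rl2, Il13ra1, Il23r and Il17re with 1 to 4 UMIs in the control. Il2rb (383 against 369 CPM), Il2rg (179 against 190), Il21r (136 against 130) and Il18rap (70.5 against 74.9) had intervals that include 0 and stay within 2-fold. The makeup of T cells differed between libraries and can shift such values. Control T cells included 10 CD4, 17 CD8 and 6 gamma delta cells, and glioma T cells 390, 349 and 75. Glioma T cells also included 131 regulatory T cells, the highest class for Il2ra, while no control cell was assigned to that class. The part of this difference in the Il2ra ratio was not tested.

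Over all cells, 23 of 47 genes tested were at least 2-fold higher in the glioma library (17.1% of all 16065 genes) and 12 lower (32.3%). The classes present differed and their part in these values was not tested: 88.0% of control cells were microglia and 59.3% of glioma cells macrophages, and T cells made up 0.387% and 11.4%. Il2rb was 52.7 against 7.20 CPM over all cells, while within T cells it was 383 against 369. Il6ra was 49.6 against 251 CPM. The genes called higher included 5 that were not measured in any class: Il24 with 43 UMIs against 0, Il22 with 22 against 0, Il23r with 38 against 7, Il9r with 37 against 12 and Il7 with 19 against 2.

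Of the 69 genes 30 were not measured. Of these, 11 had 0 UMIs in all cells of both libraries, among them Il3, Il9, Il20, Il17c and Il22ra1, and 19 had at least 1 UMI. For 0 UMIs in the 147242568 UMIs of the glioma cells, 3 UMIs correspond to 0.0204 CPM. Il33, the ligand of Il1rl1, had at most 3.64 CPM in any class used, from 3 UMIs in NK cells, and Il31ra, Il22ra2, Il20rb and Il5 stood at 3.50, 2.72, 2.88 and 0.371 CPM in their highest classes. Il1bos was 27.2 CPM in neutrophils and 1.75 in the next class.

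Neighbouring genes of the set were compared by class of highest level. Of 15 pairs of neighbours within 100 kb (GRCm38, GENCODE M21), 6 had both genes measured. On chromosome 1, Il1rl1 (40429570 to 40465415) ends 136 bases before Il18r1 (40465552 to 40500854), with Il1rl2 (40324610 to 40367562) before and Il18rap (40515362 to 40551705) after them on the same strand. Il1rl1 was highest in regulatory T cells, Il18r1 in gamma delta T cells, Il1rl2 in control microglia and Il18rap in neutrophils. The interval of Il18r1 overlapped that of CD4 T cells. With cells of more than 1 lineage kept, Il18rap was highest in CD4 T cells. On chromosome 2, Il2ra (11642807 to 11693193) and Il15ra (11705290 to 11734317), related alpha chains, were highest in regulatory T cells and Ccr7 DC. On chromosome 7, Il4ra and Il21r lie 23954 bases apart and went opposite ways between macrophages and microglia, at log2 ratios of 1.30 and -1.62.

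Genes outside the set that act downstream were taken from a fixed list of kinases, STAT factors, feedback inhibitors, adaptors and partner cytokines and receptors. Of 37 tested between glioma macrophages and control microglia, 12 (32.4%) were at least 2-fold higher and 6 (16.2%) lower, against 16.2% and 33.4% of all genes. The higher genes included the feedback inhibitors Cish (96.4 against 7.17 CPM) and Socs1 (61.8 against 5.80), the transcription factor Stat4 (8.18 against 0.846), which acts downstream of the IL-12 receptor, and Csf2rb (540 against 55.2), the chain that pairs with Il3ra. Jak1 (103 against 231), Jak3 (11.1 against 22.4) and Lifr (13.7 against 39.6 CPM) were lower. In T cells 4 of 33 (12.1%) were higher in glioma, the same share as of all genes (12.1%), Stat3 among them at 381 against 144 CPM, and none was lower, against 15.1% of all genes. The median log2 ratio of the list was 0.09 in macrophages against microglia and 0.31 in T cells, where those of all genes were -0.39 and -0.115.

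Across the 19 classes, the genes whose levels ran most like the 5 of widest range were found by Spearman's correlation, as a description over classes that share 2 libraries. For Il2rb these were Lax1 (0.92), Il18r1 (0.92) and Rab37 (0.92), and for Il2ra Tnfrsf18 (0.97), Rhof (0.96) and Sv2c (0.96). Il6ra ran with Acap2, Lyl1 and Sat1 (0.96, 0.96 and 0.95), Il4ra with Cyth1, Pde4b and Cxcl3 (0.91, 0.90 and 0.90), and Il1f9 with the neutrophil gene Stfa2l1 (0.83), Olr1 (0.81) and Serpinb2 (0.81).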

How the data were processed

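Single-cell RNA-seq of CD45+ cells was deposited as 1 matrix of raw counts per group: the authors deposited whole-number UMI counts per gene and barcode, without normalization and with all 6794880 barcodes. The control matrix held 124023146 UMIs and the glioma matrix 159689787. Per the submitters' processing notes, Cell Ranger 3.0.2, STAR and Seurat 3 were used, with the builds GRCh38 and mm10; the labels name droplet chemistry v2 or v3 without saying which. Gene identifiers were all of mouse, and coordinates are from GENCODE M21 on GRCm38, the assembly that mm10 names. Barcodes with at least 1000 UMIs and at most 10% mitochondrial UMIs were kept. The libraries shared 50 barcodes of at least 1000 UMIs.

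Classes were gated by marker UMIs; cells that passed gates of more than 1 lineage (380 control, 690 glioma) were left out as possible doublets, and no doublet caller was run. UMIs were summed per class of at least 50 cells and divided by the class total (CPM). Ratios add 0.5 UMI to each sum. Intervals are exact at 95% (Poisson, conditional binomial, Clopper-Pearson) and cover counting error only; shares come from cells thinned to 1000 UMIs. Only the comparisons of glioma macrophages with control microglia and of T cells were tested on simulated data. Those data held counting error alone, without spread between cells or mice. Free RNA was read from barcodes over 100 and up to 300 UMIs.

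Full values are given for genes with at least 100 UMIs in a class at least 3-fold over other lineages, those called in T cells, the 10 highest of each library, and partner chains and ligands; others were chosen after their values were seen. The members, lists and tests were chosen with earlier results of these data known. Alternatives covered barcode, mitochondrial, gate, doublet, free RNA and scaling settings. Analyses used Python 3.11.15, numpy 2.4.6, scipy 1.17.1 and pandas 2.3.3.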

Additional observations from a re-analysis of the deposited data

Results flagged for a closer look

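Listed here are 9 values from cells that the comparisons above left out, either because the gate held under 50 cells or because the gate's check markers or depth went against its name. Each lay above the highest described class of its own library, with intervals apart, where microglia were taken as a whole and not by state.

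In the glioma library, Il1rl1 stood at 1630 CPM in 3 cells with mast cell proteases (23 UMIs), against 43.7 CPM in regulatory T cells. In the control library, 22 cells of the NK gate had Il18rap at 361 CPM (35 UMIs) against 74.9 in control T cells, and Il2rb at 846 CPM (82 UMIs) against 369. Il1f9 was 109 CPM in 40 control cells of the neutrophil gate (24 UMIs), where control microglia had 0.0116. Il12b was 137 CPM in 15 control DC (28 UMIs) and 35.5 CPM in the 421 control cells of the macrophage gate (46 UMIs), against 5.58 in control microglia. Those 421 cells were shallow, with a median of 1745 UMIs, and had Il17ra at 148 CPM against 93.0 and Il10ra at 242 CPM against 211 in microglia. By state, the Il1a/Tnf/Gpr84 low microglia had more Il10ra than those cells, at 262 CPM (255 to 268), with overlapping intervals. Il33 was 816 CPM in 7 control cells with oligodendrocyte markers (34 UMIs), against 2.87 CPM in control endothelial cells.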

How the results depend on the processing

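No paired analysis was possible because the deposited matrices carry no assignment of barcodes to samples, which also leaves no replicate to leave out. The comparison of border-associated macrophages could not be run, since the glioma library held 36 of them, and free RNA could not be estimated from foreign markers for all cells together. Subtraction of free RNA by the UMIs of empty droplets and totals without Gm42418 and mitochondrial genes were added after seeing the data. The counts of genes called stayed within 1.5 times their value under every alternative run except that genes lower in glioma T cells numbered 5 in place of 8 when levels were means over cells. Leaving out the 5% of cells with most UMIs turned 2 T cell ratios, Il1rl2 to 0.16 and Il9r to 0.53 on the log2 scale; the cause was not tested. Of all recomputed ratios 591 kept their side of 2-fold, 8 newly passed it and 9 no longer did. Of the recomputed levels 223 stayed within their counting interval and 46 did not, and these were uneven over the settings. With means over cells 19 levels left their interval and 8 stayed. Without Gm42418 and mitochondrial genes 11 left and 16 stayed, and with cells of more than 1 lineage kept 9 left and 18 stayed. The 22 genes with a separate highest class kept it in 20 to 22 cases; Il11 lost it without the cells of most UMIs because under 50 keratin and Rhox5 cells were left, though their level was 102.5 CPM. Without Gm42418 and mitochondrial genes the median log2 ratio of all genes went from -0.39 to -0.28 in macrophages against microglia, from -0.35 to -0.25 over all cells and from -0.115 to 0.03 in T cells, and the genes lower in macrophages from 12 to 10.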
